A study of Mus musculus with 15 samples.

Results

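The nuclear genes for respiratory complexes II to V were followed in RNA from the tibialis anterior, a fast muscle of the lower hind leg, across 4 groups of mice. They were chosen by symbol: Sdha to Sdhd, Cyc1, Cycs, and every symbol that starts with Uqcr, Cox4, Cox5, Cox6, Cox7, Cox8 or Atp5, without the 7 pseudogenes among them. This gave 51 of the 55416 genes in the files: 4 of complex II, 9 of complex III, cytochrome c, 18 of complex IV, the supercomplex factor Cox7a2l and 18 of complex V. The rule reads symbols and no measured values, and it was set with earlier results of these data known. Symbols are those of an older mouse annotation, in which Atp5g1 to Atp5g3 are the genes now called Atp5mc1 to Atp5mc3.

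All mice were male C57BL/6 (C57BL/6NCrlOri), 6 to 8 weeks old. Control mice carried no tumour, and no antibody is named for them (n = 5). The other 3 groups had received KrasIKKaL cells, a tumour line, through the windpipe (all at the same number of cells), and were then given isotype IgG (rat IgG2b, n = 4; the treatment label reads anti-IgG), anti-PD-L1 at 200 µg/kg (n = 3), which blocks a ligand of an immune checkpoint, or anti-CD8a at 200 µg (n = 3), which targets cytotoxic T cells. Anti-PD-L1 and anti-CD8a were given 3 times a week into the abdomen. For the isotype IgG neither dose nor schedule is stated, so whether they matched those of the other antibodies is not known. The series was made to look for targets in cachexia, the muscle wasting of cancer, and in immune side effects on muscle. Control differed from every other group in both tumour and injection, so these cannot be told apart, and whether each library came from a separate mouse is not stated, so p-values measure the spread between libraries.

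The members build the part of the respiratory chain that follows complex I. Complex II (succinate dehydrogenase) passes electrons from the citric acid cycle to ubiquinone, complex III passes them to the carrier cytochrome c, complex IV (cytochrome c oxidase) passes them to oxygen, and complex V (ATP synthase) uses the resulting proton gradient to make ATP. Complex II is wholly nuclear, while the core of complexes III, IV and V includes subunits from mitochondrial DNA. Several complex IV subunits exist as a form of heart and skeletal muscle (Cox6a2, Cox7a1, Cox8b) and a form found in most tissues (Cox6a1, Cox7a2, Cox8a).

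Libraries held 15894822 to 22459370 expected counts. The members took 1.87% ± 0.149 of them in control (SD, n = 5), 1.28% ± 0.0753 in IgG (n = 4), 1.62% ± 0.189 in anti-PD-L1 (n = 3) and 1.85% ± 0.202 in anti-CD8a (n = 3). Every IgG library, at 1.17% to 1.332%, lay below every control library, at 1.66% to 2.001%. Genes encoded in mitochondrial DNA took 20.5% ± 2.27, 14.5% ± 1.69, 12.8% ± 1.67 and 21.3% ± 1.53 of counts in the same order. Of the 51 members, 47 were high enough to be tested. Cox6b2, a testis form of Cox6b, reached at most 10 counts in a library, and Cox7b2, Cox8c and a second entry of Atp5o (ENSMUSG00000116933) had 0 counts in all libraries, which allows up to 0.134 to 0.189 CPM in a library at 3 counts.

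In control, levels per transcript length (TPM, a share of all transcripts after correction for length) ran from 3.44 TPM for Cox4i2, a form of Cox4 best known from lung, to 2193 TPM for Cox8b. Atp5b, the catalytic beta subunit of ATP synthase, followed at 1766 TPM. Complex V summed to 14220.1 ± 1384 TPM (SD, n = 5) in control, complex IV to 12747 ± 1289, complex III to 5631 ± 529 and complex II to 786 ± 47.4. Cytochrome c stood at 187 ± 15.5 TPM. The muscle forms of complex IV were far above their counterparts in control: Cox6a2 stood at 1346 TPM against 51.9 TPM for Cox6a1, Cox8b at 2193 against 84.7 TPM for Cox8a, and Cox7a1 at 1376 against 422 TPM for Cox7a2.

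Most members stood lower in the IgG group than in controls. Of 47 tested, 35 fell and 2 rose, with a median log2 fold change of -0.53. Over all 14372 genes tested, 58.5% were called in this comparison, 28.4% as lower and 30.2% as higher, and the median was -0.02. Calls are from the quasi-likelihood test of edgeR with Benjamini-Hochberg adjustment over all genes tested, at an adjusted p under 0.05. Complex I was counted in the same way from symbols alone: Nduf, then a, b, c, s or v, then a number, without Ndufa4 and pseudogenes. This is a match of symbols and not a curated list of its subunits. Its 37 tested genes had 30 lower and 0 higher members and a median of -0.67 (31 lower and 0 higher at an unadjusted p under 0.05, and the same counts in DESeq2).

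These counts moved with the scale. Upper-quartile normalization moved the median of all genes to -0.27. It called 41 members lower and 0 higher, beside 5526 lower and 3239 higher of 14372 genes tested. A limma fit of log2(TPM + 1), added after the data were seen, moved the median of all genes to 0.11. It called 22 members lower and 4 higher, beside 2548 lower and 5004 higher of all genes. The members called lower in edgeR and not on the TPM scale were Sdhc, Uqcrb, Uqcrq, Cox4i1, Cox5b, Cox6a1, Cox6b1, Cox6c, Cox7b, Cox7c, Atp5a1, Atp5b and Atp5h. Relative to all genes, the members' median was -0.50 as reported, -0.51 with upper-quartile normalization and -0.40 on the TPM scale.

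**Figure D1:**
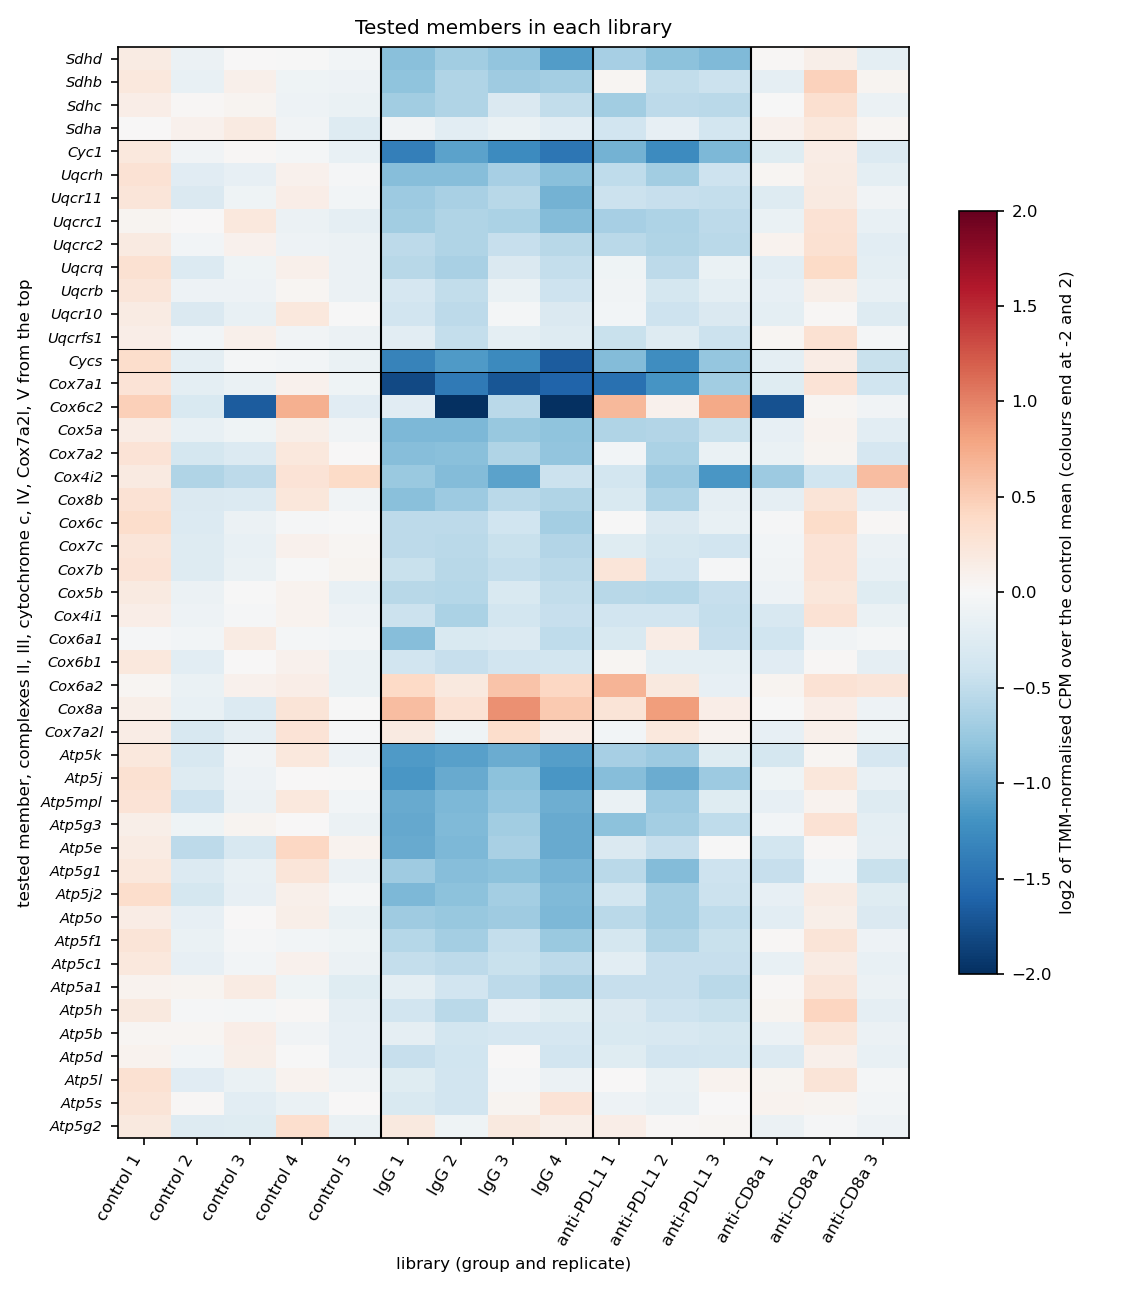
Level of each tested member (rows, grouped by complex) in each of 15 libraries (columns), as log2 of TMM-normalised CPM over the control mean, from blue (lower) to red (higher). The 4 IgG columns are blue for most members, with Cox6a2 and Cox8a red, and anti-CD8a columns are close to the control colours; Cox6c2 and Cox4i2 are rows of low counts.

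In complex II, 3 of 4 subunits fell in IgG. Sdhd, a membrane anchor, stood at 214, 177, 194, 191 and 184 CPM in control (counts scaled to a common library size with TMM factors) and at 107, 118, 111 and 88.6 in IgG. All IgG libraries lay below all control libraries, and the log2 fold change was -0.85 ± 0.12 (SE; adjusted p = 2.21e-05, edgeR). Sdhb, the iron-sulfur subunit, fell by 0.69 ± 0.15 and Sdhc, the other anchor, by 0.51 ± 0.12 on the log2 scale. Sdha, the flavoprotein that oxidises succinate, stood at 584 ± 65.1 CPM in control and 525 ± 24.6 in IgG, a log2 difference of -0.15 ± 0.12 that did not pass (adjusted p = 0.267, edgeR). The value moved with the scale: with upper-quartile normalization Sdha was called lower at -0.40, and on log2(TPM + 1) the value was 0.05.

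In complex III, 7 of 9 subunits fell, with a median of -0.54. Cyc1, the cytochrome c1 that hands electrons to cytochrome c, stood at 367, 299.5, 321, 307 and 285.8 CPM in control and at 123, 150, 132 and 116 in IgG. The groups did not overlap, and the log2 fold change was -1.28 ± 0.14 (adjusted p = 2.49e-06, edgeR). Uqcrh, the hinge protein beside it, fell by 0.80 ± 0.13. The core proteins Uqcrc1 and Uqcrc2 fell by 0.70 ± 0.13 and 0.54 ± 0.12. Uqcrfs1, the Rieske iron-sulfur protein, had a log2 difference of -0.28 ± 0.12, with all IgG libraries below control and an adjusted p of 0.0522 (edgeR), and Uqcr10 one of -0.30 ± 0.14. The small subunits Uqcr11, Uqcrq and Uqcrb completed the complex, with falls of 0.71 ± 0.13, 0.49 ± 0.16 and 0.34 ± 0.13. The call of Uqcrb was lost under 9 of the alternatives, among them the removal of control replicate 1 or 4 or IgG replicate 1, 2 or 4.

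Cycs, the soluble carrier between complexes III and IV, fell most after Cox7a1. Its values were 738, 509, 566, 560 and 529 CPM in control and 231, 264.5, 241 and 183 in IgG. The log2 fold change was -1.34 ± 0.17 (adjusted p = 9.61e-06, edgeR), a level 2.53 times lower.

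Complex V followed with 13 of 17 tested members lower. The 5 subunits of the catalytic F1 head had a median of -0.43 with 4 lower. The 8 tested subunits outside the head and the proton-carrying c-ring had one of -0.79 with 7 lower. Atp5s, which the rule takes in by symbol, is not among these 8, and with it the median was -0.76. Atp5k (subunit e, which helps join ATP synthases into dimers) and Atp5j (coupling factor 6, in the stalk) led the complex. Atp5k fell by 1.08 ± 0.15 and Atp5j by 1.03 ± 0.14, with no overlap of the groups in either. Atp5b and Atp5a1, the beta and alpha subunits of the head, fell by 0.30 ± 0.12 and 0.43 ± 0.13, and of these only Atp5a1 had an IgG library (replicate 1, at 1392 CPM) within the control range of 1353 to 1780. The remaining subunits called lower were Atp5mpl, Atp5e, Atp5j2, Atp5o, Atp5f1, Atp5c1 and Atp5h, with log2 fold changes from -0.91 ± 0.16 (Atp5mpl) to -0.33 ± 0.13 (Atp5h). The calls of Atp5b and Atp5h, the smallest of the 13, were lost under 13 and 12 of the alternatives, among them DESeq2 size factors and leaving out any one of control replicates 1 to 4 or IgG replicates 2 or 4. Atp5o, the oligomycin sensitivity protein that ties the head to the stalk, fell by 0.76 ± 0.12. Atp5d, Atp5l and Atp5s were not called, at -0.29 ± 0.13, -0.18 ± 0.13 and -0.07 ± 0.14.

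The c-ring is encoded by 3 genes whose mature protein is the same, and their values are given side by side. Atp5g3 fell by 0.90 ± 0.13 and Atp5g1 by 0.83 ± 0.15. Atp5g2 stood at 261, 191, 193, 289 and 207 CPM in control and at 261, 215, 260 and 249 in IgG, and the log2 difference was 0.11 ± 0.13 (adjusted p = 0.506, edgeR). The groups overlapped, and the sign turned with the scale, to -0.15 with upper-quartile normalization, while on log2(TPM + 1) Atp5g2 was called higher at 0.35. The TPM ratio of Atp5g1 to Atp5g2 was 2.37 to 2.71 in the control libraries. It was 1.23 to 1.497 in the IgG libraries, 1.36 to 1.85 with anti-PD-L1 and 1.96 to 2.44 with anti-CD8a. The ratio of Atp5g3 to Atp5g2, in the same order of groups, was 1.78 to 2.76, 0.969 to 1.29, 1.16 to 1.53 and 2.10 to 2.77. These ratios are given without a test.

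**Figure D2:**
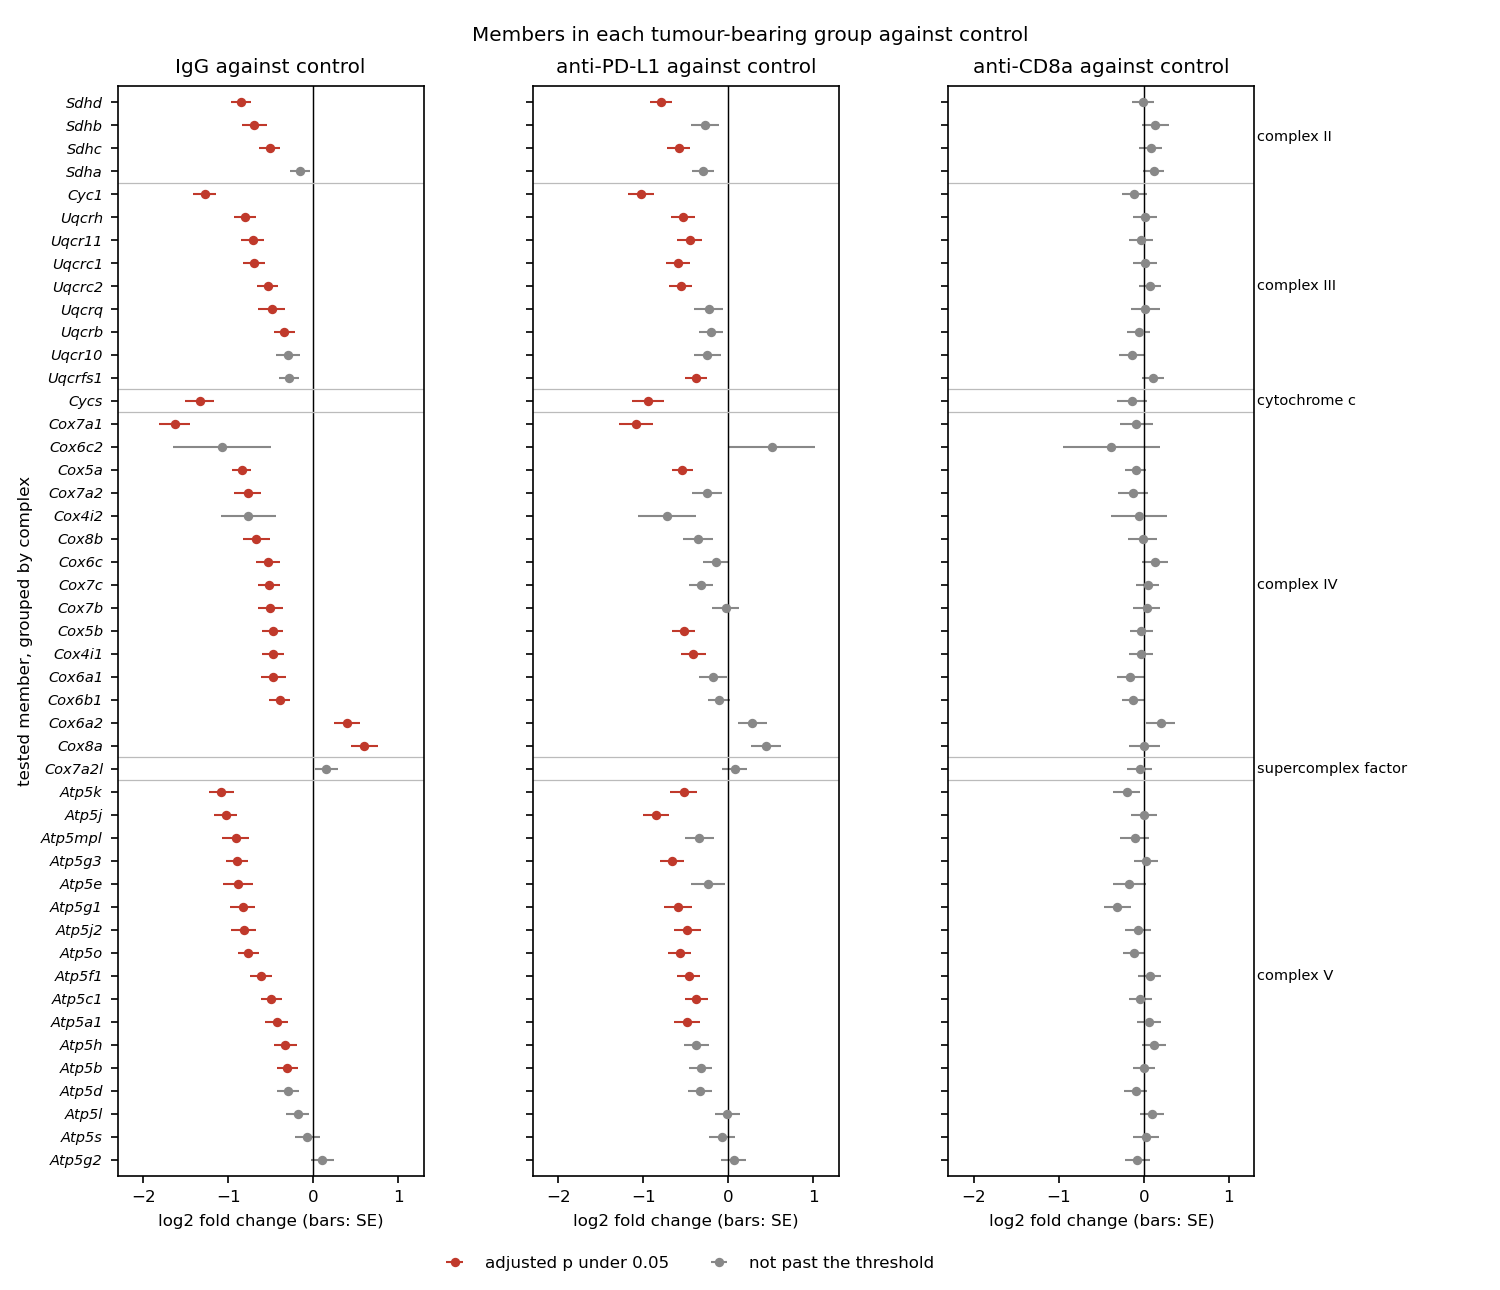
Log2 fold change of each tested member against control (points) with its standard error (bars) in IgG, anti-PD-L1 and anti-CD8a, grouped by complex, with calls in red. In IgG 35 members lie left of 0 and 2 right of 0 in red, in anti-PD-L1 22 red points lie left, and in anti-CD8a none is red.

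In complex IV, 11 of 15 tested subunits fell and 2 rose. Cox5a, which lies on the matrix side, fell by 0.84 ± 0.11, and Cox4i1, the widespread form of Cox4, by 0.47 ± 0.13. Cox5b, Cox6b1, Cox6c, Cox7b and Cox7c, which have no muscle form, fell by 0.40 ± 0.12 (Cox6b1) to 0.53 ± 0.14 (Cox6c), each with all IgG libraries below control. Cox4i2 stood near 2 CPM and had a log2 difference of -0.76 ± 0.32 (adjusted p = 0.0516, edgeR). Cox6c2 was at or near the floor, at 0.0602 to 0.310 CPM in IgG and 0.115 to 0.595 in control, and its values say little. Cox7a2l, which helps join complexes III and IV, had a log2 difference of 0.15 ± 0.14 with overlapping groups, and -0.10 with upper-quartile normalization; on log2(TPM + 1) it was called higher at 0.38.

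The muscle forms of complex IV went in different directions. Cox7a1 stood at 357, 260, 270, 314 and 279 CPM in control and at 84.3, 111, 90.1 and 97.5 in IgG. No library overlapped, and its log2 fold change of -1.63 ± 0.18 (adjusted p = 3.58e-06, edgeR) was the most negative of the 47. Cox8b stood at 472, 313, 319, 452 and 367 CPM in control and at 216, 233, 266 and 254 in IgG, without overlap, and fell by 0.67 ± 0.16. Cox6a2 stood at 734, 646, 752, 777 and 649 CPM in control and at 939, 816, 1060 and 947 in IgG. All IgG libraries of Cox6a2 lay above all control libraries, and it rose by 0.40 ± 0.15 (adjusted p = 0.0349, edgeR). That call was lost under 10 of the alternatives, among them upper-quartile normalization and the removal of control replicate 1, 2, 3 or 5 or IgG replicate 1, 3 or 4, with the value above 0 in each.

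The forms found in most tissues were split as well. Cox8a stood at 35.2, 29.3, 27.0, 38.8 and 32.3 CPM in control and at 49.7, 39.5, 61.4 and 46.8 in IgG. Every IgG library lay above the control libraries, and Cox8a rose by 0.60 ± 0.16 (adjusted p = 0.00466, edgeR); with upper-quartile normalization it was not called, at 0.35. Cox7a2 fell by 0.77 ± 0.16 and Cox6a1 by 0.47 ± 0.15. So within the Cox6a pair the muscle form rose and the other fell, within the Cox8 pair it was the reverse, and within the Cox7a pair both fell, on the scale of TMM CPM.

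**Figure D3:**
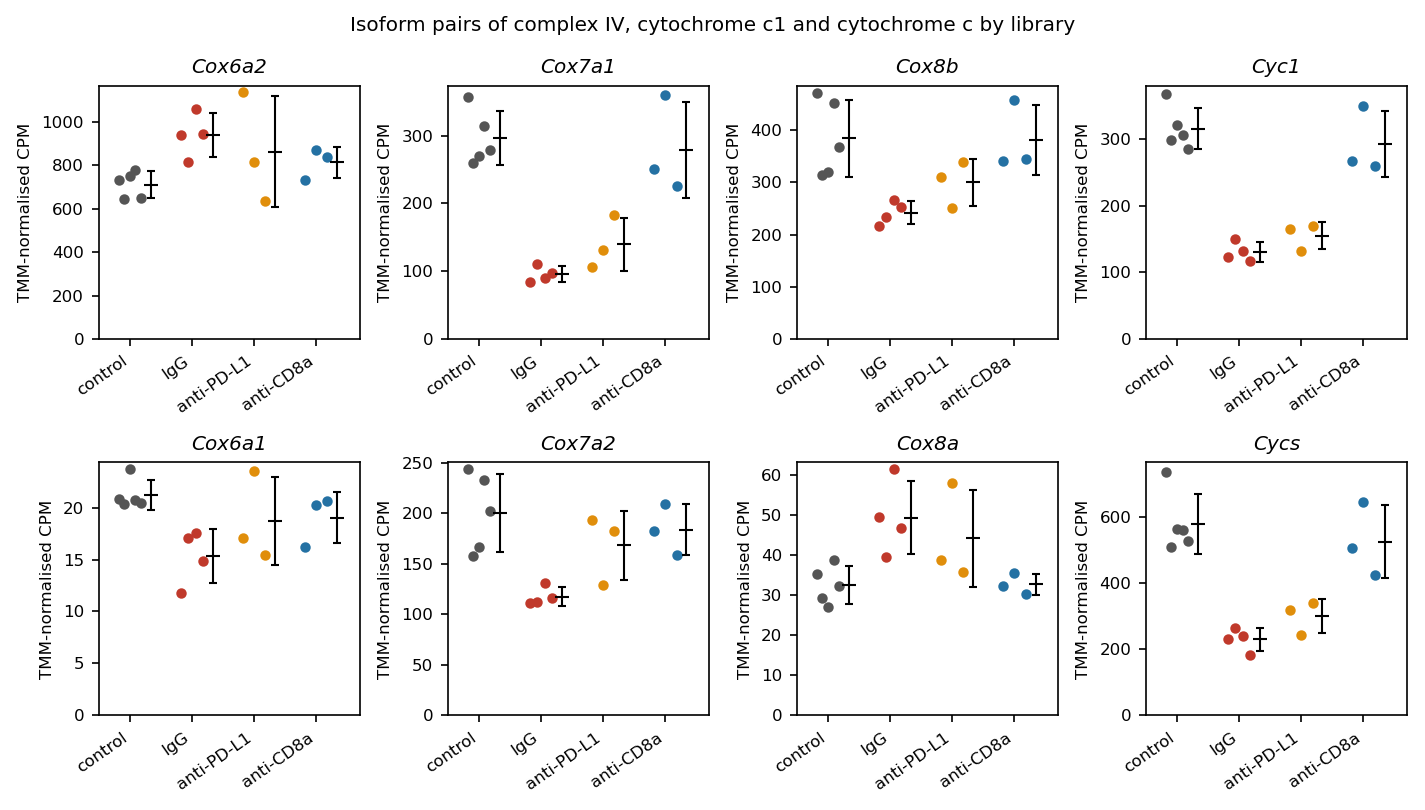
TMM-normalised CPM of the 3 pairs of complex IV forms (upper panel muscle form, lower panel its counterpart), and of Cyc1 and Cycs, in each library (points), with the group mean and SD (black). In IgG, Cox7a1, Cyc1 and Cycs lie below all control libraries and Cox6a2 and Cox8a above them.

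The ratio of the forms within a library does not depend on how libraries are scaled to each other. It does depend on the effective length of each form in that library, the stretch of a transcript that reads can start in. In anti-PD-L1 replicate 3 this was 186 for Cox8b and 376 for Cox8a. In the other libraries it was 147 to 160 for Cox8b and 336 to 350 for Cox8a. The TPM ratio of Cox8b to Cox8a was 29.4, 23.4, 26.4, 25.5 and 25.2 in control, 9.75, 13.5, 9.68 and 12.3 in IgG, 18.2, 9.74 and 19.2 in anti-PD-L1, and 23.2, 28.6 and 25.3 in anti-CD8a. The ratio was lower in all IgG and anti-PD-L1 libraries than in any control library. The ratio of Cox7a1 to Cox7a2 had a geometric mean of 3.29 in control, 1.78 in IgG, 1.86 in anti-PD-L1 and 3.297 in anti-CD8a, again with no overlap of IgG or anti-PD-L1 with control. The ratio of Cox6a2 to Cox6a1 was 26.0 in control, 47.7 in IgG, 35.4 in anti-PD-L1 and 33.3 in anti-CD8a, and IgG and anti-CD8a lay above control without overlap.

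In a two-sided exact permutation test over libraries, the log2 ratio differed between IgG and control by -1.21 for Cox8b to Cox8a, by -0.88 for Cox7a1 to Cox7a2 and by 0.88 for Cox6a2 to Cox6a1. Each had p = 0.0159, the smallest that 4 against 5 libraries can give in the exact permutation test. Over the 12 ratio tests each had an adjusted p of 0.0635 in that test, so none passed. A larger difference could not have lowered these p-values, so not passing does not show that the ratios are alike. For anti-PD-L1 against control the differences were -0.78 for Cox8b to Cox8a and -0.82 for Cox7a1 to Cox7a2, each with p = 0.0357 in the exact permutation test, the smallest possible there, and an adjusted p of 0.0714. Cox6a2 to Cox6a1 in anti-CD8a had a difference of 0.36 with the same p and adjusted p in that exact test. The ratio of Cox4i2 to Cox4i1 differed by -0.25 in IgG (exact permutation p = 0.381). Between the tumour-bearing groups the smallest possible p is 0.0571 or 0.1, so only values are given: Cox8b to Cox8a was 2.29 times higher in anti-CD8a than in IgG, and Cox7a1 to Cox7a2 1.85 times.

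**Figure D4:**
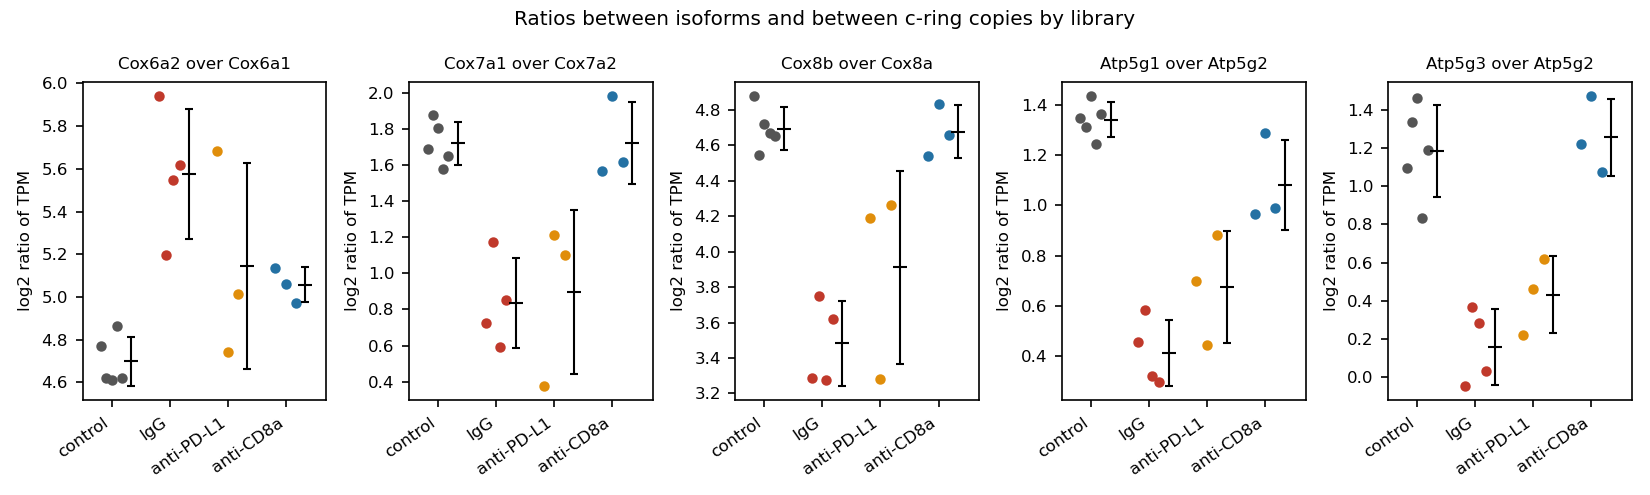
Log2 ratio of TPM between the forms of Cox6a, Cox7a and Cox8, and between c-ring genes, in each library (points), with group mean and SD (black). In IgG the Cox7a, Cox8 and c-ring ratios lie below all control libraries and the Cox6a ratio above them.

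The promoters of these forms were read for sites of known regulators of respiratory genes, since Cox7a1, Cox8b, Cox8a and Cox6a1 changed in different directions. The sequences are the 250 bases before the RefSeq start of each gene (assembly GRCm38.p6), printed 5′ to 3′ on the strand of the gene, with matches in capitals; Cox6a2 had no entry, and the window of Cox7a2, which held no match, is not printed.
Cox7a1, chr7:30183921-30184170, strand +: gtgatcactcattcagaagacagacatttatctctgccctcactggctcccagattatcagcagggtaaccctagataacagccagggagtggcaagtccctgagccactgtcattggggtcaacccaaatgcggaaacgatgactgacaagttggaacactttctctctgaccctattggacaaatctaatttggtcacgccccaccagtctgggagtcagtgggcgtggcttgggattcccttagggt
Cox8b, chr7:140900447-140900696, strand -: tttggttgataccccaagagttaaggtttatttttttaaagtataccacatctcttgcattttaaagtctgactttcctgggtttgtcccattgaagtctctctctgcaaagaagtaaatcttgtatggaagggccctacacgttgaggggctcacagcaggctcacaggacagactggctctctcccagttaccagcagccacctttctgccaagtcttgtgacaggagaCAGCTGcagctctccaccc
Cox8a, chr19:7217617-7217866, strand -: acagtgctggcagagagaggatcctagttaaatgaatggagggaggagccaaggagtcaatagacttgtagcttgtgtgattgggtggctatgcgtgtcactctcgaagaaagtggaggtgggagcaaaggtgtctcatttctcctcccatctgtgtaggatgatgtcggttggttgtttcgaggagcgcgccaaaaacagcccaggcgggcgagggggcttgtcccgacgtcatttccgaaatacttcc
Cox6a1, chr5:115348959-115349208, strand -: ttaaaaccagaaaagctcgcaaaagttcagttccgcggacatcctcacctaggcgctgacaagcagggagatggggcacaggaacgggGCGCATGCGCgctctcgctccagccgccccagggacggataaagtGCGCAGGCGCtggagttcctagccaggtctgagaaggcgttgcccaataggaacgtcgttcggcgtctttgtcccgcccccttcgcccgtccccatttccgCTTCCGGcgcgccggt
The capitals mark 2 matches of GCGCA, any base, GCGC, the site of NRF1, and 1 of CCGGAAG, bound by GABPA, in Cox6a1 (the latter on the other strand), and a match of CAGCTG, an E-box, in Cox8b. Cox7a1 and Cox8a held none of the 5 motifs searched on both strands, which also included AAGGTCA, bound by ESRRA, and CTA, any 4 bases, TAG, a broad pattern of MEF2. Of 47 tested members, 33 had a window that was read, with 1 window kept per gene and those on a single chromosome left out. The shares over the table count all 32851 windows, so the 2 sets were not chosen alike. The NRF1 motif was found in 21.2% of the 33 and in 3.74% of the 32851 windows, and CCGGAAG in 27.3% against 6.91%. AAGGTCA was found in 6.06% against 4.08%, the MEF2 pattern in 3.03% against 3.20% and CAGCTG in 6.06% against 13%. A match is a description of letters, and none of these shares was tested.

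In anti-PD-L1 against control, 22 of 47 members were lower and 0 higher, with a median of -0.38. Over all genes 34.7% were called, 13.9% as lower and 20.8% as higher, and the median was 0.05. At an unadjusted p under 0.05, 27 members were lower and 1 higher. DESeq2 called 27 members lower and 0 higher, beside 2492 lower and 2801 higher of 14372 genes. By complex, 2 of 4 members of complex II, 6 of 9 of complex III, 4 of 15 of complex IV and 9 of 17 of complex V fell, with cytochrome c. Cox7a1 fell by 1.08 ± 0.20, with 105, 130 and 183 CPM in the 3 libraries, Cyc1 by 1.03 ± 0.15 and Cycs by 0.95 ± 0.18. Cyc1 stood at 165, 132 and 169 CPM and Cycs at 319, 244.2 and 340, and all of these lay below the control libraries. Cox6a2 stood at 1140, 816 and 637 CPM, so replicates 1 and 2 lay above and replicate 3 below the control range, and its log2 difference was 0.28 ± 0.17. Cox8a stood at 38.9, 58.1 and 35.7 CPM, with a difference of 0.44 ± 0.17 (adjusted p = 0.0587, edgeR). Atp5g3 and Atp5g1 fell by 0.67 ± 0.14 and 0.60 ± 0.16, calls that were lost on log2(TPM + 1), and Atp5g1 also without anti-PD-L1 replicate 2.

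This count depended on the scale and on single libraries. On log2(TPM + 1) the median of all genes moved to 0.27 and that of the members to 0.00, with 5 lower (Sdhd, Cyc1, Cox7a1, Atp5j and Cycs) and 5 higher. Without anti-PD-L1 replicate 2 it was 12 lower. Summed over members, TPM was 34443 ± 2705 (SD) in anti-PD-L1 and 33707 ± 3226 (SD) in control, while in IgG it was 27498 ± 2255 (SD). Summed TMM CPM was 14626 ± 796 (SD) in anti-PD-L1, 18951 ± 1683 in control and 13447.5 ± 658 in IgG. On that scale anti-PD-L1, at 13819 to 15412, lay below control, at 17289 to 21463. TPM is a share of all transcripts, so it also moves with the levels of other genes. Sdhd, Cyc1, Cox7a1, Atp5j and Cycs kept their call as lower under every alternative run.

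In anti-CD8a against control, 0 of 47 members passed in either direction with edgeR, 0 at an unadjusted p under 0.05, and 0 with DESeq2. Over all genes 0.0139% were called, 0.00696% as higher and 0.00696% as lower, and the members' median was -0.03. Cox7a1 stood at 251, 359 and 225 CPM in anti-CD8a, with replicates 1 and 3 below the control range of 260 to 357 and replicate 2 just above it, and its log2 difference was -0.09 ± 0.19. For Cyc1 it was -0.11 ± 0.15 and for Cycs -0.14 ± 0.18. Across the members, log2 differences ran from -0.38 (Cox6c2, near the floor) to 0.20 (Cox6a2). In 44 of the 47, anti-CD8a replicate 2 was the highest library of its group. A difference that did not pass does not show that the groups are alike.

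Set against IgG, 32 members were higher in anti-CD8a and 1 was lower, with a median of 0.59. Over all genes 48% were called, 23.2% as higher and 24.8% as lower. By complex, 3 of 4 members of complex II, 7 of 9 of complex III, 9 of 15 of complex IV and 12 of 17 of complex V rose, with cytochrome c. Cox7a1 rose by 1.54 ± 0.20, Cycs by 1.20 ± 0.18, Cyc1 by 1.17 ± 0.15 and Atp5j by 1.03 ± 0.15, and in each all 3 anti-CD8a libraries lay above all IgG libraries. Cox8a was the member that fell, by 0.59 ± 0.19 (adjusted p = 0.016, edgeR), a call lost without IgG replicate 3, anti-CD8a replicate 1 or anti-CD8a replicate 3, with upper-quartile normalization and with the replicate number as a block. This comparison and the one of IgG with control share the IgG libraries. Upper-quartile normalization moved the median of all genes to 0.25. It called 40 members higher and 0 lower, beside 4629 higher and 2551 lower of 14372 genes. On log2(TPM + 1) 20 members were higher and 1 lower, beside 1852 higher and 3884 lower of all genes.

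In anti-PD-L1 against IgG, 0 of 47 members passed with edgeR. At an unadjusted p under 0.05, 10 were higher and 0 lower. DESeq2 called 3 members higher (Atp5e, Atp5k and Atp5mpl, small subunits of complex V), beside 870 of 14372 genes. With edgeR, 5.5% of all genes were called, 3.96% as higher and 1.54% as lower, and the members' median was 0.18. Cox7a1 had a log2 difference of 0.54 ± 0.20 and Cycs of 0.39 ± 0.18. Without anti-PD-L1 replicate 2, 5 members were called higher (Cox7a2, Cox7b, Atp5e, Atp5k and Atp5mpl), beside 1424 of 14660 genes tested. Without IgG replicate 2, 1 member was, beside 1451 of 14317 genes. Without both of those libraries 7 members were higher and Cox8a lower, beside 2230 higher and 1985 lower of 14643 genes. Higher calls over all genes thus rose as well in these fits, from 569 of 14372.

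In anti-PD-L1 against anti-CD8a, 17 members were lower and 0 higher, with a median of -0.37; over all genes 19.7% were called, 7.64% as lower and 12.1% as higher. At an unadjusted p under 0.05, 25 were lower and 1 higher. DESeq2 called 23 members lower and 0 higher, beside 1574 lower and 1736 higher of 14372 genes. Cox7a1 fell by 1.00 ± 0.21 and Cyc1 by 0.92 ± 0.16. The count of lower members in edgeR was 4 without anti-CD8a replicate 2, which had the highest share of member counts of all libraries at 2.09%. It was 7 without anti-PD-L1 replicate 2 and 9 without anti-CD8a replicate 1. Over all genes tested, 526, 443 and 519 were lower in these 3 fits, beside 1098 as reported. On log2(TPM + 1) 5 members were lower and 3 higher, beside 426 lower and 3610 higher of 14372 genes. The members' median was -0.05 there, beside 0.23 for all genes.

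Factors that act on these complexes were counted from lists. Of 36 assembly factors of complexes II to V, all tested, 22 fell and 3 rose in IgG against control, with a median of -0.58, beside 28.4% of all genes tested called lower and 30.2% higher. Taco1, needed for translation of the mitochondrial Cox1 subunit, fell by 1.97 ± 0.17, Sdhaf4, an assembly factor of complex II, by 1.85 ± 0.27, Bcs1l, which inserts the Rieske protein into complex III, by 1.85 ± 0.19, and Cmc2 by 1.72 ± 0.22. Coa4, Surf1 and Cox18, which act on complex IV, rose by 1.02 ± 0.22, 0.86 ± 0.15 and 0.67 ± 0.15. Taco1, Sdhaf4 and Bcs1l rose in anti-PD-L1 against IgG, by 0.77 ± 0.19, 1.40 ± 0.29 and 0.78 ± 0.21, where 3.96% of all genes were called higher. Each of these calls was lost without IgG replicate 1, IgG replicate 4 or anti-PD-L1 replicate 1, and leaving out replicate 3 of either group also ended those of Taco1 and Bcs1l. They were lost as well with the replicate number as a block and with only the 2 groups in the fit.

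Of 10 regulators of respiratory genes, 4 fell and 4 rose in IgG against control, where 58.5% of all genes tested were called. The coactivator Ppargc1a stood at 35.9, 91.3, 301, 26.6 and 40.1 CPM in control and at 41.4, 28.2, 41.5 and 17.7 in IgG. The groups overlapped, and its log2 fold change of -1.62 ± 0.58 (adjusted p = 0.0243, edgeR) rested on control replicate 3: without that library the value was -0.59 and was not called (adjusted p = 0.156, edgeR). The call was also lost without IgG replicate 2 or 4 and on log2(TPM + 1). The coactivator Ppargc1b fell by 1.19 ± 0.32, the nuclear receptor Esrra by 1.46 ± 0.19, and Tfam, which binds mitochondrial DNA, by 0.38 ± 0.13, the last call lost without control replicate 1 or IgG replicate 4, with no low count filter and on log2(TPM + 1). The related coactivator Pprc1 rose by 1.27 ± 0.15, and the DNA-binding factors Nrf1, Gabpa and Yy1 by 1.11 ± 0.17, 0.89 ± 0.12 and 0.83 ± 0.13. In anti-PD-L1 against control, where 34.7% of all genes were called, 4 rose and 4 fell. The calls of Ppargc1a, Ppargc1b, Gabpa and Yy1 there were lost under 4, 6, 8 and 9 of the alternatives. For each of them, leaving out anti-PD-L1 replicate 2 was among these. In anti-CD8a against control 0 passed in edgeR, with 1 higher at an unadjusted p under 0.05 and 0 in DESeq2.

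The mitochondrial partners of complexes III to V were counted too. Of 6, mt-Co2, mt-Co3 and mt-Atp6 fell in IgG against control, by 1.36 ± 0.27, 1.58 ± 0.25 and 1.19 ± 0.23. Of all genes, 28.4% were called lower there. In anti-PD-L1 against control, where 13.9% of all genes were called lower, 5 fell. In that comparison the calls of mt-Co2, mt-Atp6 and mt-Co3 were lost under 7, 9 and 1 of the alternatives. In control, mt-Co2 stood at only 155 to 214 CPM, beside 43169 to 70575.9 for mt-Co1. Proteins beside the members fell in IgG as well: Atpif1, the inhibitor of ATP synthase, by 0.88 ± 0.15, Usmg5, a small subunit of ATP synthase, by 0.92 ± 0.19, and Ndufa4, a subunit of complex IV that was long counted to complex I, by 0.47 ± 0.15. Atpif1 and Usmg5 rose in anti-PD-L1 against IgG, by 0.67 ± 0.17 and 0.79 ± 0.21, and both calls were lost under the same alternatives as that of Taco1.

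The muscle label was checked and other cell types were counted. The 6 muscle fibre genes (Ckm, Acta1, Myh4, Myh1, Myh2 and Myh7) summed to 58585 to 84189.7 CPM in control and 50923 to 76559.5 in IgG. In IgG against control 2 of the 6 fell: Acta1, the actin of skeletal muscle, by 0.84 ± 0.18, and Ckm, muscle creatine kinase, by 0.53 ± 0.20, in both with all IgG libraries below control. The call of Ckm was lost without control replicate 1 or 4 or IgG replicate 3 or 4, with no low count filter and on log2(TPM + 1). The myosin genes Myh4, Myh2, Myh1 and Myh7 were not called, with log2 differences from 0.30 (Myh4) to 1.94 (Myh7). In IgG against control, 3 of 4 fibroblast, 2 of 4 endothelial and 2 of 3 Schwann cell markers fell, 3 of 3 red cell genes rose, and 1 macrophage marker rose while 3 fell. Over all genes tested, 28.4% were called lower and 30.2% higher in this comparison, and counts from lists this short are descriptions. Summed red cell genes were 184 to 345 CPM in control and 245.5 to 1746 in IgG, summed fibroblast markers 762 to 1089 and 483 to 666, summed endothelial markers 141 to 222 and 99.5 to 163, summed macrophage markers 22.9 to 39.1 and 19.6 to 51.6, summed Schwann markers 48.3 to 146 and 8.12 to 41.8. Of adipocyte markers 0 of 3 passed in IgG in edgeR (1 higher at an unadjusted p under 0.05, 0 in DESeq2), and 2 rose in anti-PD-L1 against control, where 20.8% of all genes were called higher. Of smooth muscle markers 0 of 3 passed in either comparison, in edgeR, at an unadjusted p under 0.05 or in DESeq2. Summed adipocyte markers were 3.34 to 27.1 CPM in control, 1.20 to 119 in IgG and 19.0 to 214 in anti-PD-L1, and summed smooth muscle markers 100.4 to 150 in control and 37.1 to 163 in IgG. No defining marker of these lists was at 0 in every library of a group. Their part in the member changes was not tested, and in whole muscle a lower share of a cell type and less RNA per cell cannot be told apart.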

How the data were processed

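RNA of the tibialis anterior was sequenced in 15 libraries. Per the submitters' processing notes, reads were processed with Trim Galore, STAR 2.7.9a and RSEM 1.3.3; for genome build, annotation and strand use the sources used here gave nothing. The authors deposited RSEM expected counts and TPM per gene. The deposited expected counts were rounded, fitted for the 4 groups together in edgeR 4.0.16 (R 4.3.3; TMM, filterByExpr, quasi-likelihood test), and adjusted by Benjamini-Hochberg over 14372 genes within each comparison. SE is the absolute log2 fold change over the square root of F. The deposited TPM, which correct for transcript length, gave levels between genes and isoform ratios, tested by two-sided exact permutation (scipy 1.17.1). Alternatives used DESeq2 1.42.0 and limma 3.58.1. The model was also run on simulated data in which few genes changed, as many up as down. That run does not cover shifts as wide as those seen here.

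Symbols came from a gene name table (52083 of 55416 genes matched), promoters from RefSeq. Close copies and overlapping genes may share reads. Members and lists were chosen with earlier results of these data known, and the motifs, textbook consensus patterns taken from none of the files, after member values were seen. The rule named isoform pairs, Cycs, Cox7a2l, the ATP synthase inhibitor and c-ring genes always; per complex, the 2 most negative and the most positive members in IgG against control; any member called against most of its complex; every called gene of a list of up to 10, and up to 4 of a longer one. Other members are given to account for every subunit; they, Coa4, Surf1 and Cox18 were named after their values were seen. Counting floors cover counting error only.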

Additional observations from a re-analysis of the deposited data

Results flagged for a closer look

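In 5 of 102 groups of libraries (47 tested members and 4 isoform ratios, in control and in IgG), a single library stood far from the rest of its group, close to the 1 in 20 that chance gives. In IgG replicate 3, Uqcrh was at 172 CPM against 150 to 151 in the other IgG libraries, and Atp5d, the delta subunit of ATP synthase, at 318 against 228 to 241. In control replicate 1, Cycs was at 738 CPM against 509 to 566, and Atp5f1, the b subunit of the ATP synthase stalk, at 631 against 478 to 517. In control replicate 3, Cox6a1 was at 23.7 CPM against 20.3 to 20.9.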

How the results depend on the processing

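Among the 47 tested members, 2 values changed sign where one of the settings called the gene, both in anti-PD-L1 against control on log2(TPM + 1): Atp5c1, called lower in edgeR, was at 0.0006 and not called, and Atp5l, not called in edgeR, was called higher at 0.37. A further 220 changes of sign came where neither setting called the gene. Of the 35 members lower in IgG than in control, 22 kept the call under every alternative, as did 0 of the 2 higher; the counts were 19 of 32 higher and 0 of 1 lower in anti-CD8a against IgG, 5 of 22 in anti-PD-L1 against control and 4 of 17 in anti-PD-L1 against anti-CD8a. With upper-quartile normalization, 0 members were higher in IgG than in control, 3 higher in anti-PD-L1 against IgG and 0 lower in anti-CD8a than in IgG. Over all 14372 genes these counts were 3239, 727 and 2551. With no low count filter, 1 member was higher in IgG than in control and 9 lower in anti-PD-L1 than in anti-CD8a. Over all 27469 genes then fitted, 4318 and 1012 were. DESeq2 called 3 members higher in anti-PD-L1 against IgG, beside 870 of 14372 genes. With only the 2 groups compared, 10 members were lower in anti-PD-L1 than in anti-CD8a, beside 798 of 13627 genes. Without IgG and anti-PD-L1 replicates 2 together, 13 members were lower in anti-PD-L1 than in control, 7 higher and 1 lower in anti-PD-L1 against IgG, and 9 lower in anti-PD-L1 than in anti-CD8a. Over all 14643 genes these counts were 1361, 2230, 1985 and 683. On log2(TPM + 1), 22 members were lower and 4 higher in IgG than in control, and 5 lower and 5 higher in anti-PD-L1 than in control. Over all 14372 genes these counts were 2548, 5004, 743 and 5204. On the same scale 4 members were higher in anti-PD-L1 against IgG, 20 higher in anti-CD8a than in IgG, and 5 lower and 3 higher in anti-PD-L1 than in anti-CD8a. Over all genes these counts were 546, 1852, 426 and 3610. The cause of these moves was not tested.

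Replicate numbers did not pair the libraries: 3 of 19 same-number pairs had a correlation over 0.1, and the same number correlated best in 6 of 38 lookups. With the number as a replicate block, 1 member was higher in IgG than in control, 0 lower in anti-CD8a than in IgG and 10 lower in anti-PD-L1 than in anti-CD8a. Over all 14372 genes these counts were 3819, 3003 and 657. Leaving out each library in turn gave 1 to 2 higher and 32 to 37 lower members in IgG against control, 0 to 2 higher and 12 to 23 lower in anti-PD-L1 against control, 0 to 5 higher in anti-PD-L1 against IgG, 22 to 32 higher and 0 to 1 lower in anti-CD8a against IgG, and 4 to 17 lower in anti-PD-L1 against anti-CD8a. Over all genes, in the same order, these ranges were 3962 to 4386 and 3690 to 4284, then 1879 to 2952 and 1134 to 1979. The next were 139 to 1451, then 2766 to 3617 and 2918 to 3722, and last 443 to 1215. In anti-PD-L1 against control, Cox8a was called higher without control replicate 4, and Cox6a2 and Cox8a without anti-PD-L1 replicate 3. No ratio test passed under any alternative run, which with so few libraries says nothing about stability. With 3 to 5 libraries a group, small differences were not detectable.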

Other observations

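The fold changes of members were set beside their effective length, the stretch of a transcript that reads can start in. Over the 47 tested members, which share the same libraries, Spearman's rho of log2 fold change with effective length was 0.19 in IgG against control, -0.31 in anti-PD-L1 against control, 0.38 in anti-CD8a against control, -0.52 in anti-PD-L1 against IgG, -0.07 in anti-CD8a against IgG and -0.41 in anti-PD-L1 against anti-CD8a. These are descriptions across genes, which are not independent replicates.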
